A study of Mus musculus with 6 samples.

Results

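A set of 10 genes of Wnt signalling were followed by name through the deposited count table. They are the ligands Wnt7b and Wnt8b, the Frizzled receptors Fzd5 and Fzd8, the R-spondin receptor Lgr5, the secreted inhibitors Frzb, Sfrp1, Sfrp2 and Dkk1, and the nuclear effector Tcf7. These 10 of 38561 genes in the table were chosen by their role from a comparison of genotypes in the same libraries whose results were already known. Their levels and differences between genotypes are therefore given as a description, with no test.

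The cells came from the medial ganglionic eminence (MGE), a ventral forebrain domain that produces many cortical interneurons, of C57BL/6 mouse embryos at E11.5, in mid-gestation. All 6 libraries carried Nkx2.1-Cre and ROSAloxSTOPloxTdTomato, a reporter that turns red where Cre has acted. The 4 control libraries carried nothing further, and the 2 heterozygous libraries were also Magoh lox/+, a floxed allele of the exon junction complex gene Magoh that Cre can recombine. Red telencephalic cells were sorted, so each library holds a mixture of every cell type in the gate, and for any gene fewer cells of a type and less RNA per cell cannot be told apart. The labels do not say whether the libraries came from separate embryos, so any p-value reflects the spread among these 6 libraries alone.

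Wnt ligands bind a Frizzled receptor together with an Lrp co-receptor, and beta-catenin then escapes degradation and joins TCF/LEF proteins on target genes. Secreted Frizzled-related proteins, among them Frzb, bind Wnt ligands outside the cell, and Dkk proteins block the Lrp co-receptor. In the early forebrain, Wnt signals from dorsal and caudal sources oppose ventral and anterior fates, and several inhibitors are made at the anterior end.

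Libraries held 37429290 to 49189360 counts. Levels are CPM, counts in every 1e+06 scaled by TMM factors, and 3 counts correspond to 0.061 to 0.0835 CPM, the most that a count of 0 allows from counting error alone. Magoh stood at 68.1, 118, 63.7 and 74.3 CPM in controls 1 to 4 and at 57.1 and 48.6 CPM in heterozygous libraries 1 and 2. Reads from 4 Y-linked genes were 0 in control 2 and in heterozygous library 1 and numbered 3453 to 4291 elsewhere. Xist, which female cells express, stood at 94.2 and 111 CPM in that pair and at no more than 0.549 CPM elsewhere. In the same pair, long transcripts (8000 nt or more) were lower relative to short ones (under 1000 nt), by 0.75 and 0.32 on the log2 scale, against a shift of 0.13 to 0.38 the other way elsewhere. Differences are therefore also given within the pair without Y-linked reads (heterozygous 1 minus control 2) and among the other 4 libraries (heterozygous 2 minus the mean of controls 1, 3 and 4), neither of which is replicated in both groups. The MGE marker Nkx2-1 was present in all 6 libraries at 339 to 562 CPM. Markers of neighbouring regions were present too: the 13 genes of the dorsal telencephalon and cortical hem list summed to 291 to 471 CPM in controls and to 352 and 330 CPM in heterozygous libraries, and the 14 of the anterior midline, preoptic and hypothalamic list to 496 to 720 CPM and to 532 and 589 CPM. Within the dorsal list Emx1, a cortical gene, stood at no more than 1.11 CPM, while Emx2 (23.2 to 57.4 CPM) and Lhx2 (122 to 190 CPM), which other regions also express, were abundant.

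All 10 genes passed the filter on low counts. Both heterozygous libraries lay below all 4 controls for 7 of them (Frzb, Dkk1, Tcf7, Lgr5, Fzd5, Fzd8 and Sfrp1), and the groups overlapped for Wnt7b, Wnt8b and Sfrp2. Among all 16495 tested genes, 8.14% lay below the controls in this way and 6.17% lay above them. All 10 fold changes were below 0, as were 53.9% of all tested genes, and the median was -0.82 on the log2 scale against -0.03 over all tested genes. Since the genes were selected on this contrast, nothing is read from these shares. Across all tested genes, 0% of genes passed edgeR's quasi-likelihood test at an adjusted p of 0.05, with 3.98% lower and 1.75% higher at an unadjusted p of 0.05. Limma-voom also called 0%, and DESeq2 called 74 of the 15820 genes to which it gave an adjusted p, or 0.468%.

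**Figure D1:**
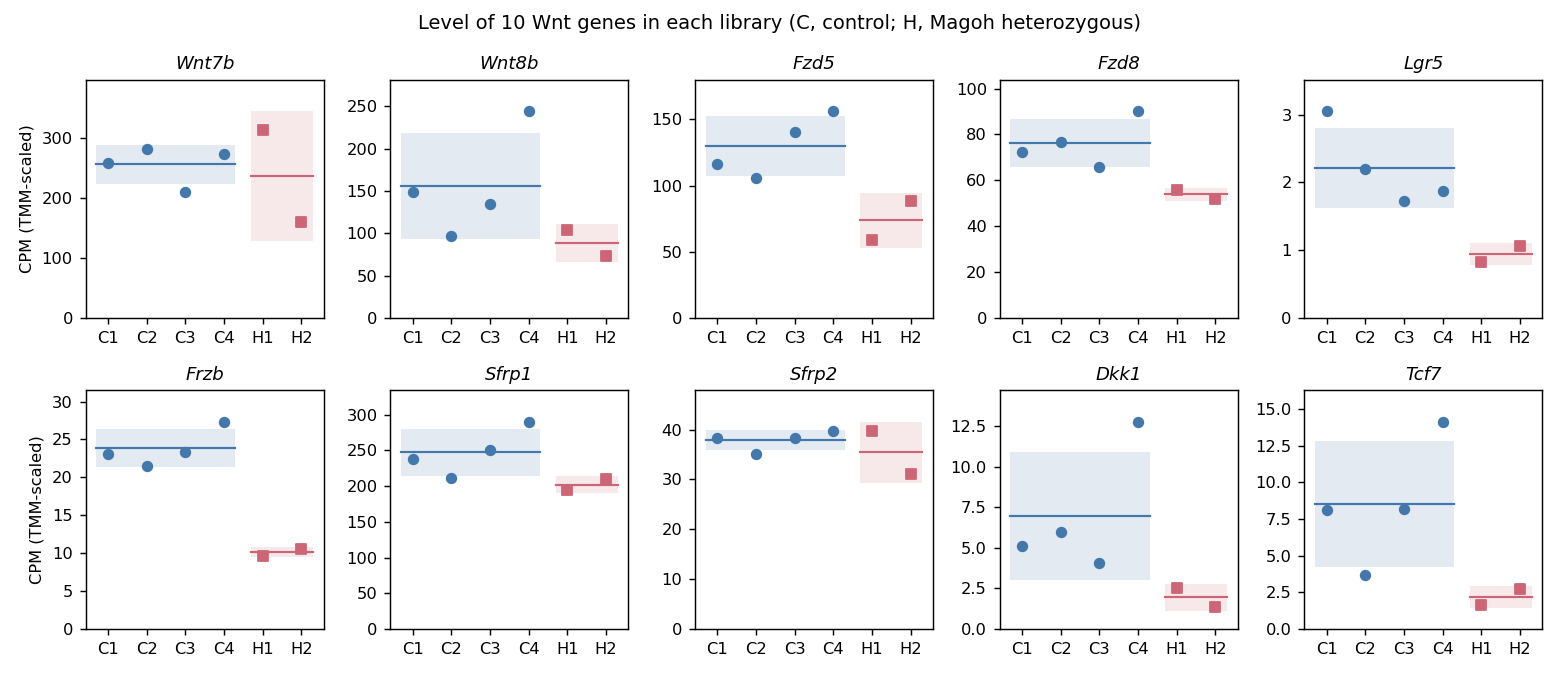
Level of each of the 10 Wnt genes in every library, in TMM-scaled CPM on axes that start at 0. Circles are controls C1 to C4, squares are heterozygous libraries H1 and H2, lines are group means and bands are 1 SD; the squares lie under all circles for 7 genes, on either side of the circles for Wnt7b and Sfrp2, and under and among them for Wnt8b.

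Dkk1 and Frzb have the short core that TCF/LEF proteins are known to bind upstream of their start. The core searched was CTTTGA, or TCAAAG on the other strand, in the 250 bases before each RefSeq start on GRCm38.p6. It occurred in 4544 of 32851 such windows, or 13.8%, and 449 windows (1.37%) held more than a single copy, as Dkk1 did. RefSeq windows were found for 6 of the 10 genes (7 windows, since Tcf7 has a pair of starts), and those of Fzd5, Sfrp2, Tcf7 and Wnt8b held no such letters. The matched stretches are printed because Dkk1 is a textbook feedback gene of the pathway and Frzb had the most separated values, and the capitals mark the core.
Dkk1 upstream site: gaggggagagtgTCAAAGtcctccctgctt
Dkk1 downstream site: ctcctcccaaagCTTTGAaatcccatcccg
Frzb site: tcccctgaaaacTCAAAGccttctcggaag
Both genes lie on the minus strand and the sequences read in the direction of the gene. The Dkk1 stretches are chr19:30549653-30549682 and chr19:30549596-30549625, with cores 168 and 111 bases before the RefSeq start. The Frzb stretch is chr2:80447474-80447503, with its core 89 bases before the start. GENCODE release M21 places both starts further upstream, so the second Dkk1 stretch and the Frzb stretch lie inside the GENCODE genes. These matches describe letters only, and no binding was measured.

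Among the ligands, Wnt7b (ENSMUSG00000022382; chr15:85535437-85582473, minus strand, GRCm38) is a Wnt of the developing forebrain neuroepithelium. It stood at 259, 282, 210 and 273 CPM in controls and at 313 and 160 CPM in heterozygous libraries 1 and 2. The heterozygous libraries therefore held both the highest and the lowest value of the 6. Means were 256 ± 32.1 CPM (SD, n = 4) and 236 ± 108 CPM (SD, n = 2), with a log2 fold change of -0.11 ± 0.27 (SE). The difference was 0.15 in the pair without Y-linked reads and -0.62 in the remaining libraries. Its sign rested on single libraries, at -0.67 without heterozygous library 1 and 0.29 without heterozygous library 2.

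Wnt8b (ENSMUSG00000036961; chr19:44493472-44514273, plus strand) marks the dorsomedial forebrain and the caudal forebrain wall. Its control values were 149, 97.2, 135 and 245 CPM, a wide spread, and its heterozygous values were 104 and 73.0 CPM. Heterozygous library 2 lay below every control, while heterozygous library 1 lay above control 2. The means of 156 ± 62.7 CPM (SD, n = 4) and 88.8 ± 22.3 CPM (SD, n = 2) gave a log2 fold change of -0.82 ± 0.36 (SE). Without control 4, the highest library, it was -0.51. In the pair without Y-linked reads the difference was 0.10, against -1.22 among the others. Lmx1a, a roof plate and cortical hem gene that the gate could also hold, stood at 30.4 to 82.9 CPM in controls and at 49.6 and 16.2 CPM in the heterozygous libraries. Of the 12 tested markers in its list, dorsal telencephalon and cortical hem, 4 were below 0 and 8 above. Their median log2 fold change was 0.17. The part of such cells in the Wnt8b values was not tested.

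Fzd5 (ENSMUSG00000045005; chr1:64730558-64737751, minus strand) encodes a Wnt receptor known for its role in the eye field and ventral diencephalon. Control libraries had 117, 106, 140 and 156 CPM and heterozygous libraries had 59.2 and 88.2 CPM, with no overlap. Means were 130 ± 22.8 CPM (SD, n = 4) and 73.7 ± 20.5 CPM (SD, n = 2), with a log2 fold change of -0.82 ± 0.24 (SE). Without heterozygous library 1, the lower of the pair, it was -0.54. The difference was -0.84 without and -0.63 with Y-linked reads, and both signs follow from the lack of overlap. Of its 6915 nt of exons, 1233 nt overlap those of Gm38058 on the opposite strand, and reads in that stretch cannot be assigned without strand.

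Fzd8 (ENSMUSG00000036904; chr18:9212163-9218136, plus strand), a close relative of Fzd5 with a single exon, is known from the anterior neural plate. It measured 72.4, 76.9, 65.8 and 90.3 CPM in controls and 56.0 and 51.9 CPM in heterozygous libraries. The heterozygous values lay close together and under all controls. Means of 76.4 ± 10.3 CPM (SD, n = 4) and 54.0 ± 2.88 CPM (SD, n = 2) gave a log2 fold change of -0.50 ± 0.18 (SE). The differences of -0.46 and -0.54 in the libraries without and with Y-linked reads were near each other.

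Lgr5 (ENSMUSG00000020140; chr10:115450311-115587780, minus strand), a receptor for R-spondins and a stem cell marker in the gut, was the least abundant of the 10 genes. It had 114, 79, 78 and 84 reads in controls and 35 and 52 in heterozygous libraries, or 3.06, 2.20, 1.72 and 1.88 CPM against 0.825 and 1.06 CPM. The groups did not overlap. Means were 2.21 ± 0.595 CPM (SD, n = 4) and 0.941 ± 0.165 CPM (SD, n = 2), giving a log2 fold change of -1.23 ± 0.42 (SE). The difference was -1.41 without and -1.02 with Y-linked reads.

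Of the secreted inhibitors, Frzb (ENSMUSG00000027004; chr2:80411970-80447625, minus strand) had the most separated groups relative to the spread of its controls. Its controls lay close together at 23.1, 21.5, 23.3 and 27.4 CPM, and its heterozygous libraries at 9.64 and 10.6 CPM. Even the lowest control was 2.04 times the higher heterozygous value, and the controls had a coefficient of variation of 10.4%. Means were 23.8 ± 2.49 CPM (SD, n = 4) and 10.1 ± 0.649 CPM (SD, n = 2). The fold change was -1.24 ± 0.19 (SE) on the log2 scale, with -1.16 and -1.22 in the libraries without and with Y-linked reads.

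Sfrp1 (ENSMUSG00000031548; chr8:23411502-23449632, plus strand), a related inhibitor, stood at 238, 211, 250 and 290 CPM in controls and at 194 and 210 CPM in heterozygous libraries. The higher heterozygous value was only just under control 2, by a ratio of 1.004, and the groups overlapped under median-of-ratios (RLE) scaling and under scaling by total count. Means of 247 ± 33.0 CPM (SD, n = 4) and 202 ± 11.47 CPM (SD, n = 2) gave a log2 fold change of -0.29 ± 0.18 (SE). It was -0.12 without and -0.30 with Y-linked reads.

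Sfrp2 (ENSMUSG00000027996; chr3:83766321-83774316, plus strand) was the steadiest gene in controls, at 38.3, 35.1, 38.3 and 39.8 CPM. Heterozygous libraries stood at 39.8 and 31.2 CPM, at the upper edge of the controls and below all of them. Means were 37.9 ± 1.999 CPM (SD, n = 4) and 35.5 ± 6.13 CPM (SD, n = 2), with a log2 fold change of -0.09 ± 0.17 (SE). The sign differed between the libraries without (0.18) and with (-0.32) Y-linked reads, and the fold change was -0.27 without heterozygous library 1 and 0.07 without heterozygous library 2. The 3 Sfrp-family inhibitors thus had different sizes of difference in the same libraries, although the differences among them were not tested.

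Dkk1 (ENSMUSG00000024868; chr19:30545863-30549665, minus strand), the Lrp blocker whose upstream core sites are printed above, had 190, 214, 183 and 572 reads in controls and 108 and 66 in heterozygous libraries. In CPM these were 5.09, 5.96, 4.04 and 12.8 against 2.55 and 1.34. Control 4 stood apart as the highest, and both heterozygous libraries lay below every control. Means were 6.97 ± 3.96 CPM (SD, n = 4) and 1.94 ± 0.851 CPM (SD, n = 2), giving a log2 fold change of -1.85 ± 0.55 (SE). Without control 4 it was -1.37, and it was -1.23 without and -2.26 with Y-linked reads.

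Tcf7 (ENSMUSG00000000782; chr11:52252371-52283014, minus strand) encodes a TCF/LEF transcription factor that is itself a target of the pathway. It had 8.15, 3.67, 8.18 and 14.2 CPM in controls and 1.65 and 2.73 CPM in heterozygous libraries, from 132 to 633 and from 70 to 134 reads. The lowest control was control 2, and the heterozygous libraries lay below it as well. Means of 8.54 ± 4.31 CPM (SD, n = 4) and 2.19 ± 0.761 CPM (SD, n = 2) gave the lowest fold change of the 10, -1.96 ± 0.54 (SE) on the log2 scale. The difference was -1.15 without and -1.85 with Y-linked reads.

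**Figure D2:**
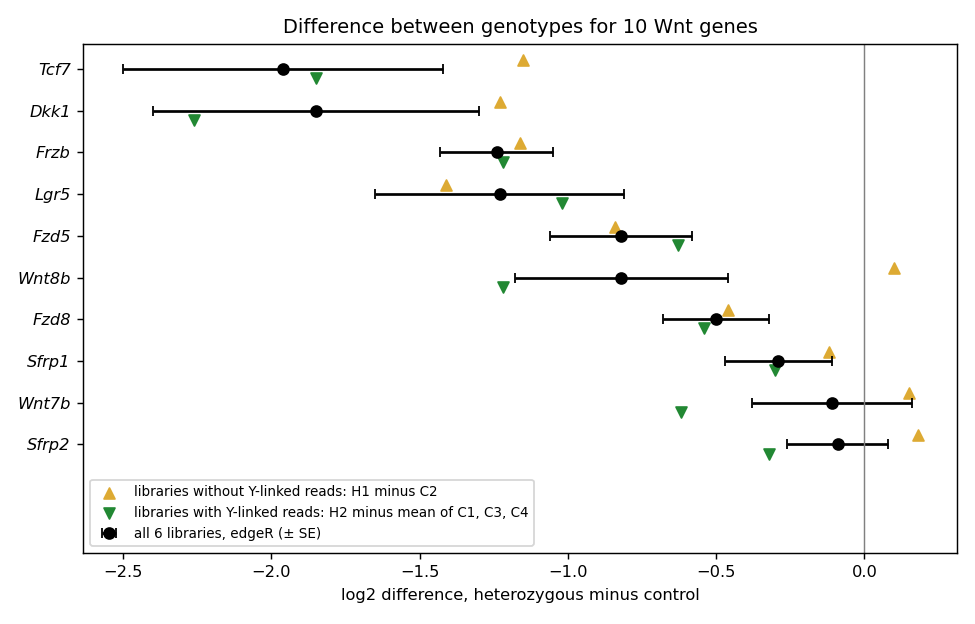
Difference between heterozygous and control libraries for each Wnt gene, on a log2 axis. Black points are edgeR's log2 fold changes over all 6 libraries with bars of 1 standard error, and triangles are the differences in log2 CPM within the libraries without (H1 minus C2) and with (H2 minus C1, C3 and C4) Y-linked reads; the triangles fall on opposite sides of 0 for Wnt8b, Wnt7b and Sfrp2.

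Per kilobase of exon, control levels ran over a wide range. Sfrp1 was highest at 56.6 ± 7.55 CPM per kb (SD, n = 4), followed by Wnt7b at 52.2 ± 6.56 and Wnt8b at 44.9 ± 18.0. Fzd5 (18.8 ± 3.30), Sfrp2 (17.6 ± 0.929) and Fzd8 (12.8 ± 1.73) came next. Frzb (7.36 ± 0.768), Tcf7 (3.25 ± 1.64), Dkk1 (2.87 ± 1.63) and Lgr5 (0.216 ± 0.0580) were the least abundant on this scale. Control ranges overlapped between the neighbours Sfrp1 and Wnt7b, Wnt7b and Wnt8b, Fzd5 and Sfrp2, and Tcf7 and Dkk1, and not between the other neighbours. With the length of the longest transcript in place of all exons, Wnt7b (75.2) ranked above Sfrp1 and Sfrp2 (18.9) above Fzd5. The low-abundance genes Tcf7, Dkk1, Lgr5 and Frzb had the 4 lowest fold changes, and the abundant Sfrp1 and Wnt7b were among the 3 nearest to 0. The abundant Wnt8b, however, had -0.82. Standard errors were wide for Tcf7 (0.54), Dkk1 (0.55) and Lgr5 (0.42), against 0.19 for Frzb. Because the genes were chosen with this contrast known, no relation of level to fold change is read.

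Control libraries also differed among themselves. Control 4 was the highest control for 8 of the 10 genes, and control 2 the lowest for 6. Heterozygous library 2 lay below heterozygous library 1 for 5 genes. Control 4 also had the lowest MGE marker score of the controls (-0.75), a score being the mean log2 CPM of a list in a library minus its mean over controls. Its score was the highest control score for mesenchyme (0.44), surface ectoderm (0.41) and the vascular, blood and microglia list (1.84). The same held for the anterior midline and hypothalamus (0.15) and the dorsal telencephalon and cortical hem (0.29). Csf1r and Cx3cr1, microglial genes, stood at 28.2 and 17.6 CPM in control 4 and at no more than 0.965 and 0.950 CPM in the other controls. The blood gene Hba-x (64.4 CPM) was also highest there, while the endothelial gene Cdh5 (0.850 CPM) lay within the range of the others.

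The other genes of the pathway came from lists by textbook role, which were drawn up with earlier results of these data known. Of 82 such genes, 70 were tested, and 0 passed edgeR's test across the transcriptome (smallest adjusted p = 0.793). Without adjustment 4 had a p under 0.05 and were lower (Wnt1, Wnt6, Lgr4 and Dkk2), 2 were higher (Wif1 and Tle1), and DESeq2 called 1 of the 70. Over all tested genes the unadjusted shares were 3.98% lower and 1.75% higher, and DESeq2 called 0.468%. Both heterozygous libraries lay below all controls for 8 genes, or 11.4%, close to the 8.14% of all tested genes. They lay above all controls for 2, where the share over all tested genes was 6.17%. The median log2 fold change was -0.22 against -0.03 over all tested genes, with 51 values below 0.

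**Figure D3:**
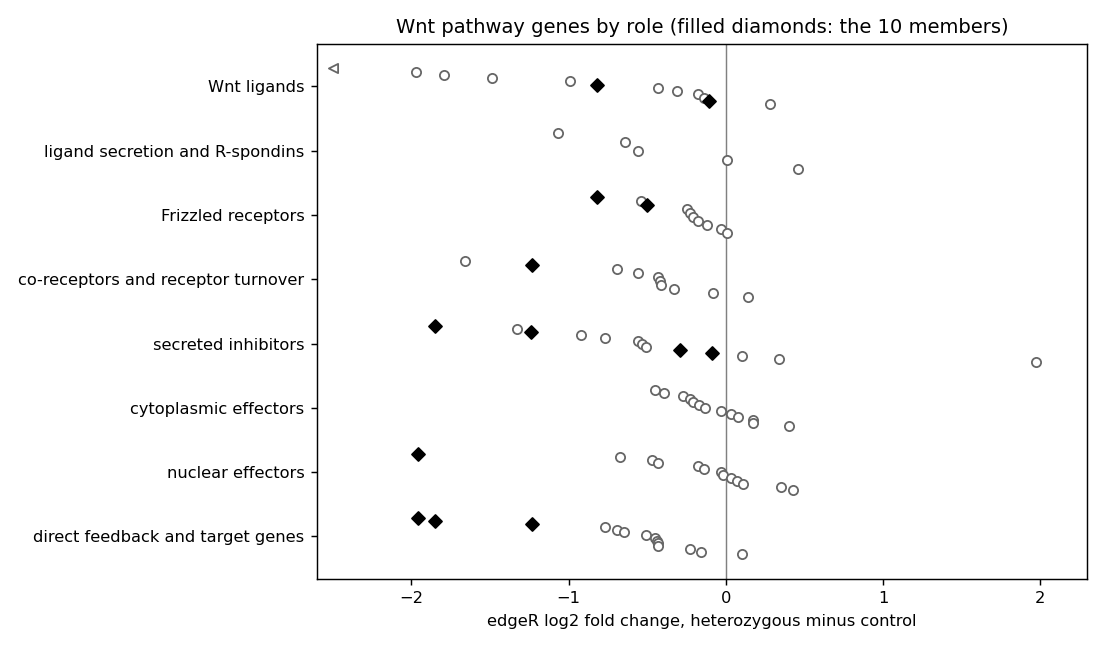
Log2 fold change (heterozygous minus control, edgeR) of each tested Wnt pathway gene, by role, with the 10 genes followed here as filled diamonds and the others as open circles; the vertical line marks 0 and a gene with more than a single role appears in each. The open triangle is Wnt6, whose fitted value lies beyond the axis because it had 0 reads in both heterozygous libraries; most ligands, co-receptors and targets lie left of 0, and cytoplasmic and nuclear effectors lie on both sides of it.

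By role, ligands had a median of -0.71 over 10 tested genes, of which 9 were below 0 and 3 lay below all controls in both heterozygous libraries. Over all tested genes these shares were 53.9% and 8.14%, and nothing is read from so few genes. Of the 10 ligands, 5 had a mean under 1 CPM over the 6 libraries, and the median of the other 5 was -0.43. Wnt6 had 0 reads in both heterozygous libraries and in control 3, so its fitted value is no bound, and the ligand median was the same with Wnt6 set at its bound. Wnt5a, a ligand of the non-canonical branch, stood at 51.8 to 70.1 CPM in controls and at 48.2 and 43.3 CPM in heterozygous libraries (log2 fold change -0.31, edgeR adjusted p = 0.92). Wnt7a, the closest relative of Wnt7b, stood at 21.7 to 34.8 CPM in controls and at 28.2 and 40.5 CPM, a fold change above 0 (0.28 ± 0.27, SE). Wnt5b had a log2 fold change of -0.43 ± 0.28 (SE) and its groups overlapped.

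Secretion genes and R-spondins had a median of -0.56 over 5 genes. Wls, the carrier that brings Wnt proteins to the cell surface, stood at 59.3 to 121 CPM in controls and at 74.5 and 33.3 CPM in heterozygous libraries. Rspo2, a secreted ligand of the Lgr receptors, was at 44.6 to 94.4 CPM in controls and at 67.1 and 12.5 CPM, and Porcn, which adds the lipid to Wnt proteins, had a fold change of 0.01. For both Wls and Rspo2 heterozygous library 2 was the lowest of the 6 and heterozygous library 1 lay within the controls.

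Among the 8 other Frizzled receptors the median was -0.20. Of these, 0 lay below all controls in both heterozygous libraries, where the share over all tested genes was 8.14%. Fzd5 and Fzd8 were chosen with this contrast known, so no difference from them is read, and none was tested. The most abundant were Fzd2 at 248 ± 32.0 CPM in controls and 219 ± 25.5 CPM in heterozygous libraries (SD, n = 4 and n = 2), Fzd3 with a log2 fold change of -0.21 ± 0.19 (SE) and Fzd1 with 0.01 ± 0.17 (SE). Co-receptors and receptor turnover genes had a median of -0.42 over 9 genes, 8 of them below 0. The co-receptor Lrp6 stood at 103 to 161 CPM in controls and at 101 and 112 CPM in heterozygous libraries (log2 fold change -0.41 ± 0.21, SE), Lrp5 had -0.42 ± 0.30 and the Wnt receptor Ryk -0.08 ± 0.17.

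The other 9 secreted inhibitors had a median of -0.53, with 3 below and 1 above all controls in both heterozygous libraries. Over all tested genes 8.14% lay below and 6.17% above in this way, and nothing is read from so few genes. Apcdd1, a membrane inhibitor that is also a pathway target, was the most abundant, at 35.0 to 113 CPM in controls and 50.3 and 26.8 CPM in heterozygous libraries. Kremen1, a Dkk receptor, had a fold change of 0.10 ± 0.26 (SE) and Draxin of 0.34 ± 0.32 (SE), with overlapping groups. Of the 9 fold changes, 6 were below 0 and 3 above. Cytoplasmic effectors had a median of -0.13 over 13 genes. Ctnnb1, which encodes beta-catenin, was nearly level at 1537 ± 82.0 CPM in controls and 1508 ± 27.6 CPM in heterozygous libraries (SD, n = 4 and n = 2), and Gsk3b, the kinase that marks it for degradation, had a fold change of 0.17 ± 0.19 (SE). Nuclear effectors had a median of -0.03 over 12 genes, with Tle3 at -0.18, Bcl9 at -0.14 and Tcf7l1, a relative of Tcf7 that mostly represses, at -0.47 ± 0.27 (SE).

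Other feedback genes of the pathway are described apart from the 10 genes. The list of direct targets had 11 tested genes with a median of -0.44, 10 values below 0 and 0 genes lower in both heterozygous libraries than in all controls. These counts leave out Dkk1, Tcf7 and Lgr5, targets that are among the 10 genes chosen with this contrast known. Over all tested genes 53.9% of values were below 0 and 8.14% of genes were lower in this way. Axin2, the most widely used readout of beta-catenin activity, stood at 25.5, 9.35, 25.8 and 40.1 CPM in controls and at 20.6 and 16.4 CPM in heterozygous libraries. Control 2 was the lowest of the 6, so the groups overlapped, and its fold change on the log2 scale was -0.45 ± 0.48 (SE). Lef1, a partner of beta-catenin, was at 72.2, 33.6, 58.6 and 105 CPM against 57.7 and 42.6 CPM (-0.43 ± 0.40, SE). Sp5 was at 29.0, 16.9, 19.4 and 46.7 CPM against 25.6 and 10.1 CPM (-0.65 ± 0.50, SE).

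Nkd1 stood at 27.1, 16.8, 28.6 and 29.4 CPM in controls and at 25.3 and 18.2 CPM in heterozygous libraries. Notum, an enzyme that inactivates Wnt proteins, was near 1 CPM in both groups, at 1.27 ± 0.972 CPM (SD, n = 4) and 0.888 ± 0.355 CPM (SD, n = 2). For all 5 of these feedback genes the groups overlapped. In the libraries without Y-linked reads Axin2, Lef1, Sp5 and Nkd1 were higher in the heterozygous library, by 1.14, 0.78, 0.60 and 0.59 log2 units. In the others they were lower, at -0.86, -0.84, -1.55 and -0.64. Dkk1, Tcf7 and Lgr5, which are targets as well, were lower in both sets, but they were chosen with this contrast known. Ccnd1, a cell cycle gene often counted among targets, had a fold change of -0.16 ± 0.16 (SE).

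**Figure D4:**
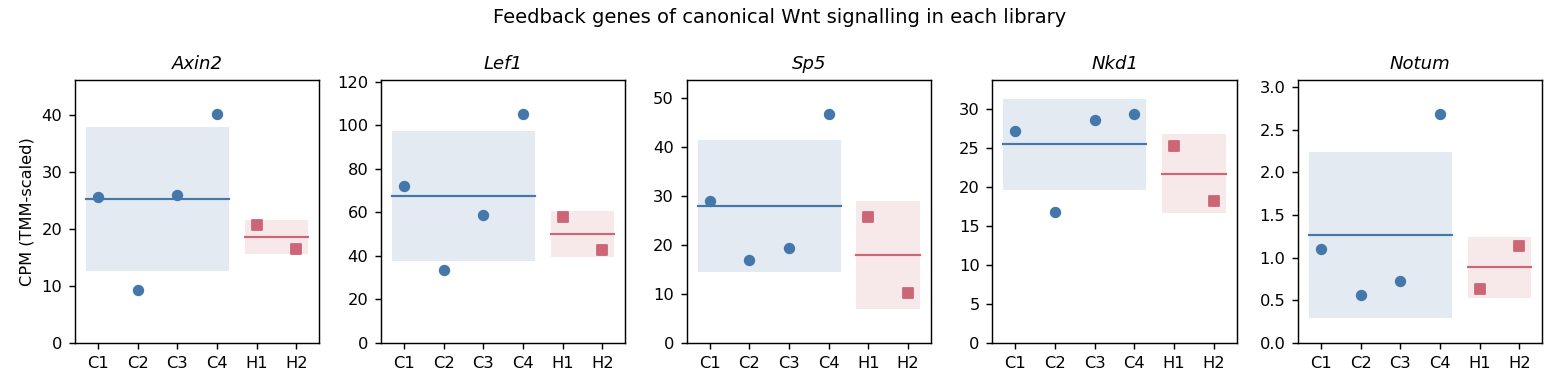
Level of 5 feedback genes of Wnt signalling in every library, in TMM-scaled CPM on axes that start at 0. Circles are controls, squares are heterozygous libraries, lines are group means and bands are 1 SD; squares and circles overlap for all 5 genes, and control 2 is the lowest library for Axin2, Lef1, Nkd1 and Notum.

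Marker lists of other cells were set beside the Wnt genes, whose own score was -0.81 and -0.91 in the heterozygous libraries against -0.23 to 0.36 in controls. The heterozygous libraries had higher scores than any control for neurons (0.40 and 0.73, controls up to 0.30), with all 12 neuronal markers above 0 in log2 fold change. They had slightly lower scores for radial glia and progenitors (-0.38 and -0.36, controls from -0.35), with 9 of 12 below 0. Summed neuronal markers were 2120 to 3094 CPM in controls and 3608 and 4322 CPM in heterozygous libraries, while summed progenitor markers overlapped (3891 to 6733 CPM against 3942 and 4663 CPM). Of the anterior midline, preoptic and hypothalamic list, 9 of 13 tested markers were below 0 and the scores were -0.20 in both, with controls from -0.15. In this list 2 genes lay below and 3 above all controls in both heterozygous libraries, so it did not move one way, and all 5 are given. Over all tested genes 8.14% lay below and 6.17% above in this way. Fgf8, a signal of the anterior forebrain, stood at 7.18, 7.12, 8.66 and 16.7 CPM in controls and at 1.51 and 1.24 CPM in heterozygous libraries, and Rax at 61.1 to 133 CPM against 46.7 and 47.6 CPM. The hypothalamic transcription factor genes Nkx2-2 (13.0 to 17.7 CPM in controls, 31.3 and 23.5 CPM in heterozygous libraries), Sim1 (17.8 to 26.5 CPM against 43.9 and 34.5 CPM) and Otp (27.9 to 56.0 CPM against 75.2 and 71.6 CPM) were above the controls. The part of these cells in the lower levels of the Wnt genes was not tested.

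Scores of the other lists overlapped between genotypes or differed between the heterozygous libraries. Mesenchyme scored 0.50 and -1.22 in heterozygous libraries 1 and 2, the vascular, blood and microglia list 0.70 and -3.39, and surface ectoderm 0.24 and -1.14. Library 2 was thus lowest and library 1 above 0 in all 3. Krt14 and Krt15 of the last list had 0 reads in every library. Heterozygous library 2 was also the lower of the pair for Wnt7b, Wnt8b, Sfrp2, Dkk1 and Fzd8, and the higher for the other 5 Wnt genes. The part of these cells in those values was not tested. MGE identity scored 0.02 and 0.94 against -0.75 to 0.37 in controls, and the dorsal telencephalon and cortical hem list 0.36 and -0.11 against -0.38 to 0.29.

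**Figure D5:**
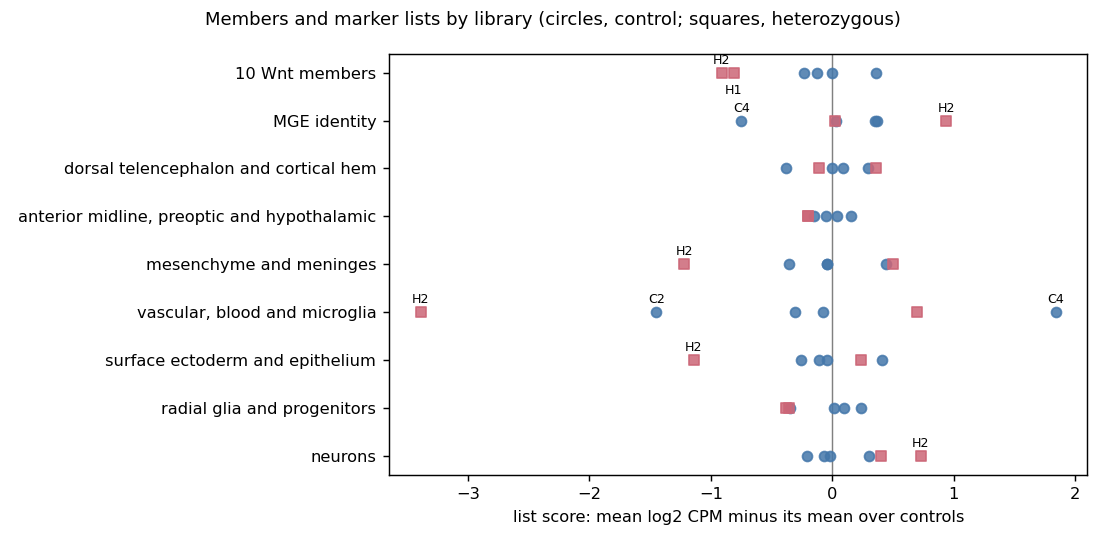
Scores of the 10 Wnt genes and of 8 marker lists in each library, as mean log2 CPM minus its mean over the controls. Circles are controls and squares are heterozygous libraries (some labelled C or H with their number). The Wnt genes, chosen with this contrast known, lie lower in the heterozygous libraries and neurons lie higher. Radial glia and the anterior midline list lie slightly lower, and vascular, blood and microglial markers spread from -3.39 to 1.84.

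The gene with the most similar pattern to each Wnt gene was taken from 10154 genes by the root mean square distance of centred log2 CPM over the 6 libraries, as a description. Dkk1 was nearest to Fgf10 (0.18 log2 units), Frzb to Bcam (0.15), Tcf7 to Epha2 (0.22) and Lgr5 to Hist1h4k (0.23). The receptors Fzd5 and Fzd8 were nearest to Fbxl7 (0.068) and Fbln1 (0.052). Wnt7b was nearest to Tspan12 (0.069) and Wnt8b to Fras1 (0.11). Sfrp1 was nearest to Tmem214 (0.027) and Sfrp2 to Galm (0.033). The distance grows with how far a gene itself varies, from a range of 0.35 log2 units in Sfrp2 to 3.21 in Dkk1, so distances are not compared between genes.

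On the genome the 10 genes lay on 9 chromosomes, with Dkk1 and Wnt8b both on chromosome 19. Their longest transcripts ran from 1 exon in Fzd8 and 2 in Fzd5 to 10 in Tcf7 and 11 in Lgr5. The intron-poor Fzd5 and Fzd8 and the exon-rich Tcf7 and Lgr5 all lay below every control in both heterozygous libraries. Because the genes were chosen with this contrast known, nothing is read from this about exon number. Besides Fzd5, Wnt7b (324 of 4898 nt, with AU022754) and Sfrp2 (347 of 2153 nt, with Gm26771) share exonic sequence with a gene on the opposite strand. The other 7 genes shared none.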

How the data were processed

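Trim Galore, STAR and HTSeq are named, with the build mm10, per the submitters' processing notes. The authors deposited raw read counts for 38561 Ensembl genes, and every row named a gene. A second deposited table of normalized values was not used. Annotation, strand and counting options: not given in the sources used here. Reads of antisense genes therefore cannot be told apart. Libraries were grouped by the genotype in the labels. The 10 members, the Wnt role lists and the marker lists were chosen with earlier results of these data known.

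From the counts, genes were kept by filterByExpr (16495 genes) and scaled by TMM, and genotypes were compared with edgeR 4.0.16 (glmQLFit, robust, glmQLFTest, R 4.3.3), two-sided, at an adjusted p (Benjamini-Hochberg, all tested genes) of 0.05. Log2 CPM used a prior count of 2. Named genes were the 10 members, from each role list the 3 other genes with the highest control mean, 5 feedback genes, marker genes of lists that moved with the members, and for each member the nearest pattern among genes of at least 5 CPM without clone names. Exon lengths and coordinates came from GENCODE M21 on GRCm38, and sequences from RefSeq. Alternatives were DESeq2 1.42.0, limma-voom (limma 3.58.1), scaling by RLE or by upper quartile, a filter at a mean of 1 CPM or none at all, no robust fitting, a threshold of 0.1, Y-linked expression as a covariate, a block for the sample code number, removal of length and GC trends, the longest transcript as length, and leaving out each library in turn. Leaving out both libraries without Y-linked reads, the count of members under other scalings, and role medians over genes of at least 1 CPM were added after seeing the data. Scripts were tested on simulated data.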

Additional observations from a re-analysis of the deposited data

Results flagged for a closer look

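In the controls, 39 genes were checked for a library far from the others, and 2 stood out. Chance gives about 1 in 20 such groups. Wnt5a stood at 70.1 CPM in control 4 and at 51.8 to 52.7 CPM in the other controls, a gap of 0.953 of the whole range. Lrp5 stood at 54.1 CPM in control 2 and at 104 to 110 CPM in the others, a gap of 0.899 of the range, and control 2 is the control without Y-linked reads.

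For 3 of the 10 Wnt genes the difference between genotypes had opposite signs in the libraries without and with Y-linked reads. The first minus the second was 1.32 log2 units for Wnt8b, 0.77 for Wnt7b and 0.50 for Sfrp2, and these differences were not tested, since neither set is replicated in both groups.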

How the results depend on the processing

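EdgeR called 0 genes, DESeq2 74 (7 higher and 67 lower), and edgeR with a block for the sample code number 11, all lower. The labels do not say what that number marks, and the genotypes share only 1 such number, so the blocked difference and its 11 calls rest on heterozygous library 2 against control 1, 1 library of each genotype. Of the 70 other Wnt pathway genes tested, DESeq2 called 1 and the other fits that were run called 0. Their median log2 fold change of -0.22 was -0.42 without both libraries lacking Y-linked reads, and ran from -0.37 to -0.13 with each library left out in turn. Among ligands the median of -0.71 was -0.43 for those that averaged 1 CPM or more, an alternative chosen after seeing the data. The count of 7 members below all controls was 6 under RLE and total count scaling, 8 without control 2 and 10 without heterozygous library 1. With a library left out this order is easier to meet. The share over all tested genes was not computed under these settings, so nothing is read from the changes. Over 190 alternative values for the members, 19 for each, 7 members stayed below 0 in every one. These are the 7 whose heterozygous libraries both lay below all controls, so leaving out or splitting libraries largely fixes their sign in advance. The share over all tested genes was not computed, and nothing is read from this count. The 5 values above 0 belonged to Sfrp2, Wnt7b and Wnt8b, whose values ran from -0.32 to 0.18, from -0.70 to 0.29 and from -1.26 to 0.10. Ranges were -2.44 to -1.23 for Dkk1, -2.38 to -1.15 for Tcf7, -1.31 to -1.13 for Frzb and -1.14 to -0.40 for Fzd5. Depth limits Lgr5 most, with 35 reads in heterozygous library 1.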

Other observations

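A few pathway genes outside the naming rule, chosen after their values were seen, lay outside the control range in both heterozygous libraries. Wnt1, a ligand of the midbrain and dorsal midline, stood at 5.71, 4.95, 15.01 and 14.3 CPM in controls and at 2.48 and 2.62 CPM in heterozygous libraries (log2 fold change -1.97 ± 0.54, SE; edgeR adjusted p = 0.793), and it is the gene that DESeq2 called. Lgr4, the abundant relative of Lgr5, stood at 79.5 to 101 CPM in controls and at 66.0 and 53.2 CPM (-0.56 ± 0.18, SE). Dkk2 stood at 7.37 to 28.4 CPM in controls and at 6.95 and 4.50 CPM. In the other direction, the Wnt-binding inhibitor Wif1 stood at 0.201 to 0.696 CPM in controls and at 1.84 and 1.57 CPM (1.97 ± 0.60, SE; edgeR adjusted p = 0.793).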
